A study of Mus musculus with 8 samples.

Results

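The SLC2A family of facilitative sugar transporters was examined in brain endothelial cells of mice with an endothelial deletion of GLUT1, its main member in that tissue. Its members were the rows of 10 Slc2a genes, Slc2a1, Slc2a3, Slc2a4, Slc2a5, Slc2a6, Slc2a8, Slc2a9, Slc2a10, Slc2a12 and Slc2a13, out of 25700 genes in each count table, and each gene matched 1 row by its Ensembl identifier. The cells were sorted by flow cytometry from brains of C57BL/6 pups at postnatal day 6 and used uncultured. There were 4 libraries from GLUT1EC-/- pups, in which GLUT1 was deleted in endothelial cells (KO). The other 4 came from wild-type pups described as littermates (WT). Each library came from 1 pup, while the Cre line and the deleted exons were not given in the sources used here. Total counts per library ran from 20858070 to 40833036 in KO and from 25886455 to 114007737 in WT. By their titles the 4 KO pups were caged with WT pup 5, the other 3 WT pups being in another cage. Most of the genotype difference therefore cannot be told apart from cage, or from litter if the cages held different litters. The names of the deposited tables disagree with the titles and give a second set of cage labels, in which WT pup 3 took the place of WT pup 5 beside the KO pups. KO pup 1 stood apart, with 13624 genes detected against 15756 to 17082 in the other 7 libraries.

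GLUT proteins are membrane carriers that let sugars and related small molecules pass down their concentration gradient. The class I carriers (GLUT1, GLUT3 and GLUT4 among the genes examined) move glucose, the class II carriers GLUT5 and GLUT9 move fructose and urate, and several class III carriers (GLUT6, GLUT8, GLUT10, GLUT12 and the myo-inositol carrier HMIT) reside largely on internal membranes. In the brain, GLUT1 of the endothelium is the main route of glucose across the blood-brain barrier. The comparison addresses which relatives could make up for its loss.

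Reads can only be assigned to a relative if the genes differ in sequence, so a well conserved coding stretch of the family is shown here. Among gap-free runs of 60 aligned coding bases within a single exon of each gene, it has most identity to Slc2a1 summed over the family. It lies near the 3′ end of the coding sequence, next to the last membrane-spanning helix. Sequences are those of GENCODE M21 transcripts (GRCm38), read 5′ to 3′ on the coding strand, with bases that differ from Slc2a1 in capitals. The stretches are chr4:119136299-119136358 (plus strand, exon 10 of 10) for Slc2a1, chr6:122730028-122730087 (minus strand) for Slc2a3, chr11:69943460-69943519 (minus strand) for Slc2a4 and chr5:38351225-38351284 (minus strand, exon 12 of 12) for Slc2a9.
Slc2a1: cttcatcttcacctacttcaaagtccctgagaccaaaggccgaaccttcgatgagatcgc
Slc2a3: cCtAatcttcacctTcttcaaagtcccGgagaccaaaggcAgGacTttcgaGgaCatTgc
Slc2a4: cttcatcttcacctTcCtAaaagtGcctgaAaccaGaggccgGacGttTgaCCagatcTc
Slc2a9: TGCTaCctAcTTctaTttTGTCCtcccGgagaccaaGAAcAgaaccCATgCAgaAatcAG
In this stretch Slc2a3 differed from Slc2a1 at 10 positions, Slc2a4 at 12 and Slc2a9 at 27. Over whole coding sequences, identity to Slc2a1 was 67.6% for Slc2a4, 66.3% for Slc2a3, 53.4% for Slc2a5, 51.6% for Slc2a9 and 42.8% to 48.1% for the class III genes. None of the stretches of 100 bases, the read length, was shared between the 10 genes. Slc2a1 and Slc2a3 shared 0.158% and 0.164% of theirs with genes outside the family. Slc2a12 shared 7.45% with Tbpl1, a gene that overlaps it on the opposite strand. The strand setting of the counting was not given, so reads in that overlap could not be assigned with certainty.

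Slc2a1 supplied nearly all SLC2A transcripts in both genotypes. Levels of different genes were compared as RPKM, CPM divided by the summed length of a gene's exons in kilobases, with CPM being counts scaled to a common library total after correction for library composition. On this scale Slc2a1 reached 430 ± 25.5 RPKM in KO and 868 ± 189 RPKM in WT (SD, n = 4 each, as for all means below). No relative came near it in either genotype. The next was Slc2a8 at 4.64 ± 1.03 RPKM in KO and 4.51 ± 0.665 RPKM in WT. It was followed by Slc2a9, at 4.42 ± 0.446 RPKM in KO and 1.74 ± 0.154 RPKM in WT. Levels around 1 RPKM were measured for Slc2a12, 0.756 ± 0.536 RPKM in KO and 1.68 ± 1.10 RPKM in WT, and for Slc2a10, 0.875 ± 0.145 RPKM in KO and 0.730 ± 0.150 RPKM in WT. Slc2a13 and Slc2a3 had 0.536 ± 0.0355 and 0.529 ± 0.0669 RPKM in KO and 0.407 ± 0.113 and 0.418 ± 0.108 RPKM in WT. Slc2a4 and Slc2a6 had at most 0.274 RPKM in any library, and Slc2a5 at most 0.0210 RPKM.

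In the WT order the libraries of neighbouring genes overlapped for Slc2a9 and Slc2a12, Slc2a12 and Slc2a10, Slc2a3 and Slc2a13, Slc2a4 and Slc2a6, and Slc2a6 and Slc2a5. Slc2a1, Slc2a8, Slc2a10 and Slc2a13 lay apart from the gene below them. In KO libraries Slc2a8 and Slc2a9 overlapped, whereas in WT each Slc2a8 value (3.76 RPKM or more) was above each Slc2a9 value (1.85 RPKM or less). Slc2a1 made up 97.3 ± 0.349% of the summed family level in KO and 98.9 ± 0.169% in WT.

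**Figure D1:**
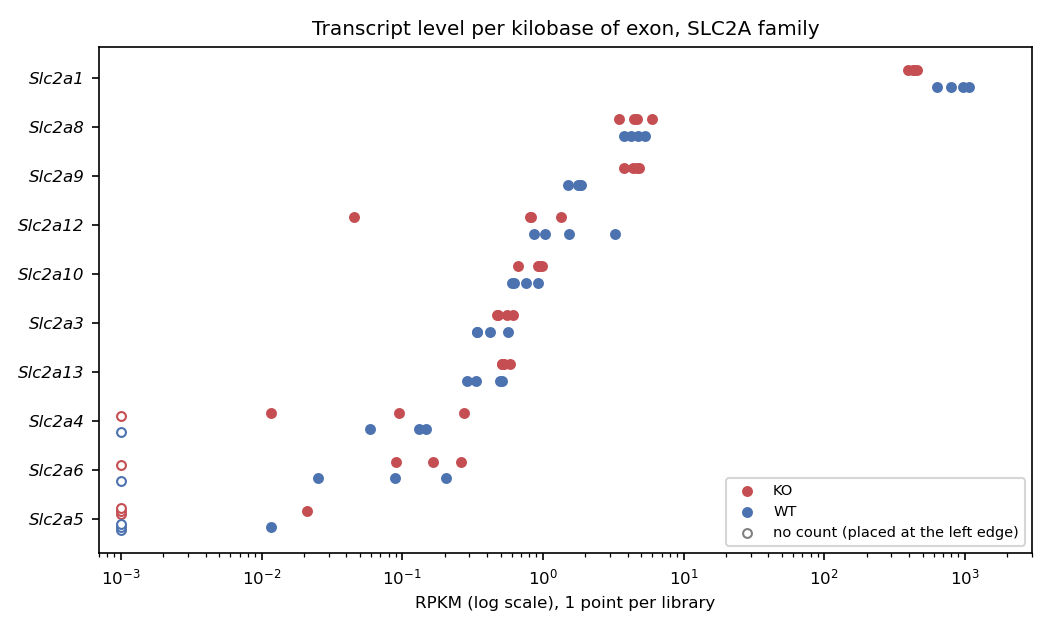
Transcript level of each SLC2A member in RPKM on a log scale, with 1 point per library, KO above WT for each gene and genes ordered by their WT mean. Slc2a1 stands between 395 and 1062 RPKM in all 8 libraries, while Slc2a8, the next gene, has at most 5.96 RPKM, and open circles mark libraries without a count.

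Of the 10 members, 8 passed the filter on low counts and were tested. Slc2a9 rose, Slc2a1 fell and the other 6 tested members did not pass. Over all 14154 genes tested, edgeR's quasi-likelihood test called 0.276% higher and 0.113% lower in KO (0.389% in either direction) at an adjusted p under 0.05. In 2 of the 8 members, Slc2a9 and the deleted gene Slc2a1 itself, the KO and WT libraries did not overlap, against 7.19% of all genes tested. The median log2 fold change was 0.27 over the 8 tested members and 0.00175 over all genes. Without the filter, 0.452% of 18602 genes were called in either direction, and Slc2a5 (log2 fold change 1.26, adjusted p 0.836) and Slc2a6 (0.64, adjusted p 0.893) were not among them.

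Slc2a1 (ENSMUSG00000028645, chromosome 4, 119108711 to 119137983) measured 1386, 1510.0, 1528 and 1601 CPM in KO pups 1 to 4, against 2237, 3419, 2791 and 3725 CPM in WT pups 1, 2, 3 and 5. The groups did not overlap, and the KO pups lay within a narrower range than the WT pups. The level in KO was 49.5% of that in WT, a log2 fold change of -1.01 (SE 0.14, edgeR adjusted p 0.00619). The counts cover the whole gene and do not show which exons remained. Here and below, fewer cells of a type and less RNA per cell cannot be told apart in bulk RNA. With cage as a term the log2 fold change was -1.31 by the titles (adjusted p 0.0207) and -0.89 by the second cage labels (adjusted p 0.331). Within the KO cage alone, 4 KO pups against 1 WT pup, it was -1.31 by the titles and -0.89 by the second labels. The spread in those fits comes from the KO pups alone, with the single WT pup assumed to vary like them, so their p-values do not show that the call holds within a cage.

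Slc2a9 (ENSMUSG00000005107, chromosome 5, 38349273 to 38503143, minus strand) encodes GLUT9, known as a urate carrier. It measured 19.3, 22.2, 24.4 and 23.8 CPM in KO pups 1 to 4, against 9.03, 9.41, 9.29 and 7.72 CPM in WT pups 1, 2, 3 and 5. All 4 KO pups were above all 4 WT pups, and the spread within each group was small beside the gap. Slc2a9 rose 2.53-fold (95% interval 2.07 to 3.09), a log2 fold change of 1.34 (SE 0.13, edgeR adjusted p 0.000753). No annotated gene overlaps it in GENCODE M21, and none of its 100-base stretches occurred in another gene. Without any one library its log2 fold change lay between 1.28 and 1.40 and it stayed called each time. With the cage of the titles as a term it was 1.54 (adjusted p 0.0403), and within the KO cage alone 1.54 (adjusted p 0.0944). With the second cage labels the call was lost (1.27, adjusted p 0.186), also within the KO cage by those labels (1.27, adjusted p 0.210). Each of these cage fits sets the KO pups against a single WT pup, and those within a cage take their spread from the KO pups alone. In human cells the SLC2A9 gene has been described as a target of p53, and 9 of 13 listed p53 targets were called higher here, against 0.276% of all genes tested. The 4 that did not pass were Mdm2 (log2 fold change 0.43, adjusted p 0.0997), Trp53inp1 (0.68, adjusted p 0.299), Bbc3 (0.10, adjusted p 0.906) and Tigar (0.03, adjusted p 0.980). The p53 list was chosen with earlier results of these data known, so its share of calls is not an independent test. Whether p53 had a part in the Slc2a9 level was not tested.

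**Figure D2:**
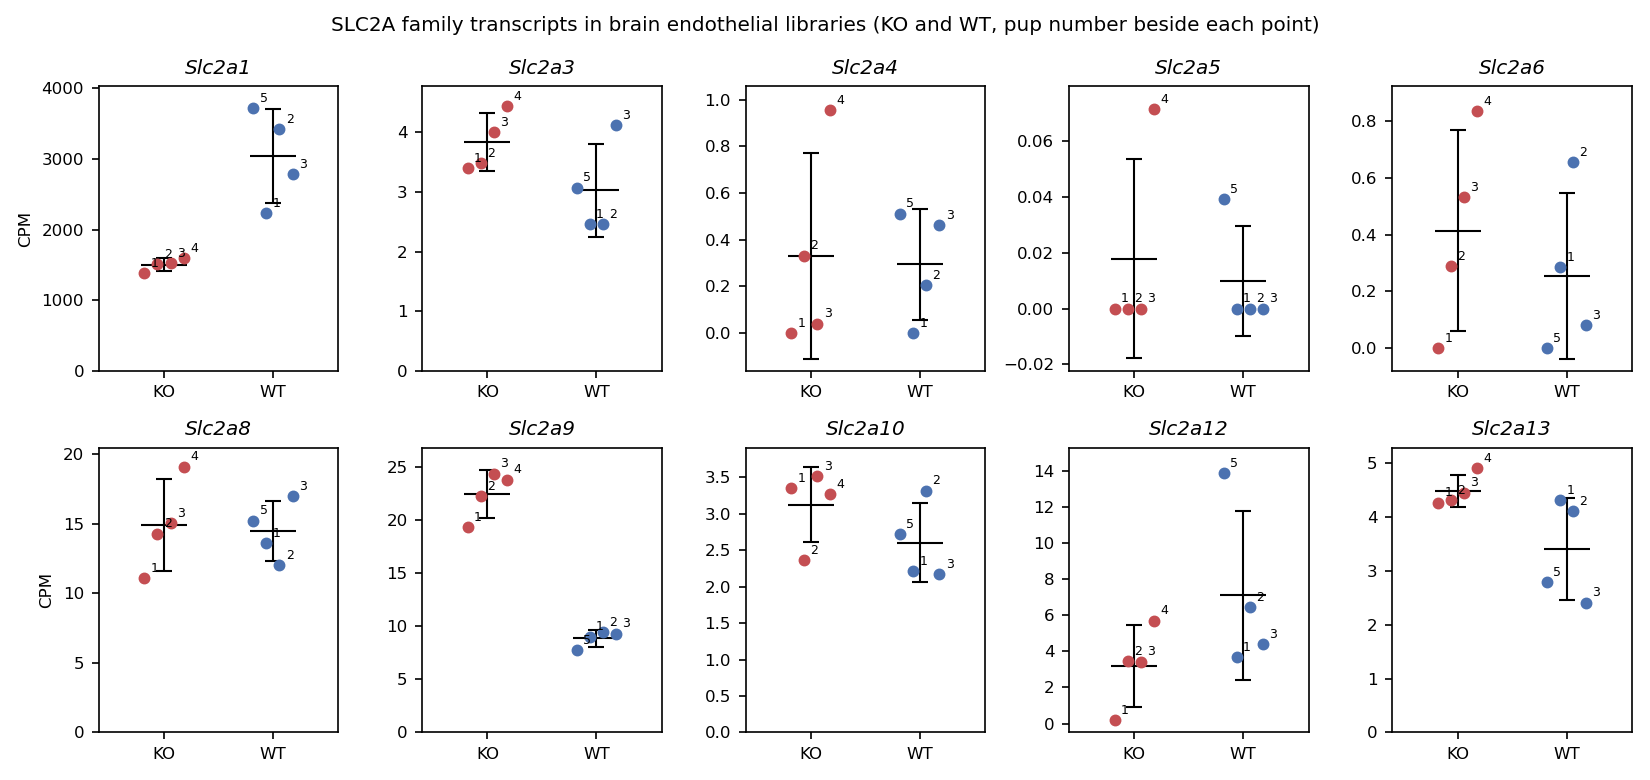
CPM of each SLC2A member in the 4 KO and 4 WT libraries, with 1 point per pup (number beside it), a bar at the mean and whiskers of 1 SD. KO and WT points are separate for Slc2a1 (1386 to 1601 CPM in KO, 2237 to 3725 CPM in WT) and Slc2a9 (19.3 to 24.4 CPM in KO, 7.72 to 9.41 CPM in WT) and overlap for the remaining 8 genes.

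The other carriers of class I, which move glucose, were scarce and did not pass the test. Slc2a3, the GLUT3 of neurons, measured 3.40, 3.48, 4.0 and 4.44 CPM in KO pups 1 to 4, against 2.46, 2.46, 4.12 and 3.07 CPM in WT pups 1, 2, 3 and 5. WT pup 3 lay among the KO pups. Its log2 fold change was 0.35 (SE 0.28, edgeR adjusted p 0.713), with a 95% interval of 0.828 to 1.95 in fold, so a rise of up to 1.95-fold lay within the error. With the second cage labels as a term it was -0.10. Slc2a4, the insulin-responsive GLUT4 of muscle and fat, had 0, 8, 1 and 40 counts in KO pups 1 to 4 and 0, 23, 17 and 13 counts in WT pups 1, 2, 3 and 5. KO pup 4 alone held most of the KO counts, and the 95% interval of the fold (0.186 to 7.93) was too wide for a statement in either direction. Slc2a5, the fructose carrier GLUT5 of class II, had 3 counts in KO pup 4, 1 count in WT pup 5 and 0 in the other libraries, where a count of 0 allows at most 0.144 CPM in the shallowest library. GLUT5 is used as a marker of microglia in brain, and the summed level of 10 other microglial markers was 675 to 1797 CPM in KO and 696 to 1193 CPM in WT. All 10 had positive log2 fold changes (median 0.23). By edgeR 0 were called, against 0.389% of all genes tested, with 1 at an unadjusted p under 0.05.

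**Figure D3:**
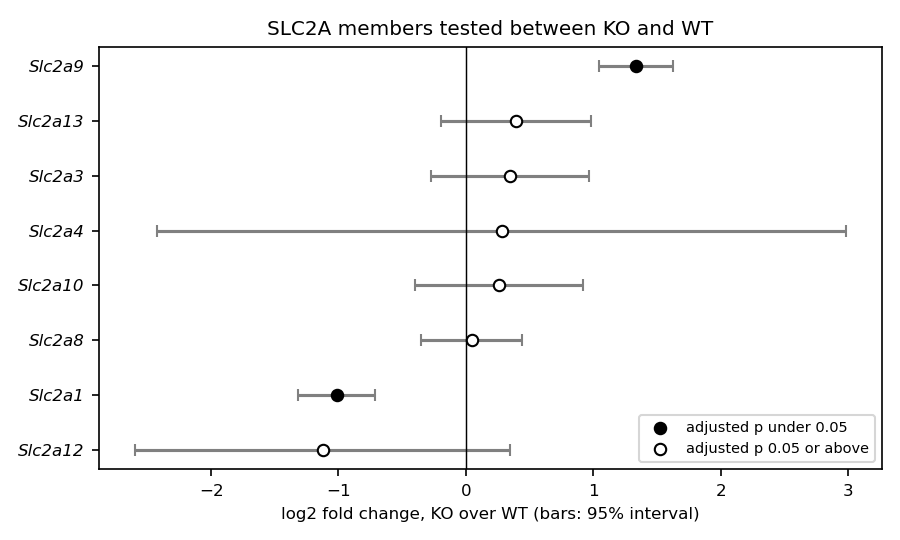
Log2 fold change of the 8 tested SLC2A members, KO over WT, with 95% intervals from edgeR's quasi-likelihood fit. Filled points mark the called genes Slc2a9 (1.34) and Slc2a1 (-1.01), and the intervals of the 6 others include 0.

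Class III carriers included Slc2a8, the second most abundant member in WT, whose level did not separate the genotypes. Slc2a8 encodes GLUT8, a carrier of internal membranes, and measured 11.1, 14.3, 15.1 and 19.1 CPM in KO pups 1 to 4, against 13.6, 12.1, 17.02 and 15.2 CPM in WT pups 1, 2, 3 and 5. The groups overlapped over most of their range. Its log2 fold change was 0.05 (SE 0.18, edgeR adjusted p 0.960), and the 95% interval in fold, 0.785 to 1.36, was the narrowest among the 6 members that did not pass. With the second cage labels as a term the log2 fold change was -0.19. Slc2a13, which encodes the proton-coupled myo-inositol carrier HMIT, measured 4.27, 4.31, 4.45 and 4.92 CPM in KO pups 1 to 4, against 4.31, 4.11, 2.41 and 2.80 CPM in WT pups 1, 2, 3 and 5. KO pups 1 and 2 lay just below WT pup 1, and the groups overlapped only there (log2 fold change 0.39, SE 0.27, edgeR adjusted p 0.651). Slc2a10 encodes GLUT10, whose loss causes arterial tortuosity syndrome in humans. Its values spanned 2.36 to 3.51 CPM in KO and 2.17 to 3.32 CPM in WT (log2 fold change 0.26, SE 0.30). Slc2a6, known from lysosomal membranes of macrophages, had 0 to 35 counts in KO and 0 to 73 counts in WT and did not pass the filter.

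Slc2a12, which encodes GLUT12, varied most between libraries among the tested members above 1 CPM in mean. It measured 0.192, 3.48, 3.43 and 5.70 CPM in KO pups 1 to 4, against 3.67, 6.45, 4.42 and 13.9 CPM in WT pups 1, 2, 3 and 5. WT pup 5 was highest and KO pup 1, with 4 counts, lowest, while the other 6 libraries overlapped. The log2 fold change of -1.12 (SE 0.67, edgeR adjusted p 0.592) became -0.59 without WT pup 5 and -0.74 without KO pup 1, and it was -2.10 with the cage of the titles as a term and -0.45 with the second cage labels. Markers of choroid plexus epithelium, where GLUT12 is known to be present in mouse, also differed between libraries. The sum of 6 such markers was 82.1, 131, 16.5 and 290.4 CPM in KO pups 1 to 4 and 445, 877, 365 and 1868 CPM in WT pups 1, 2, 3 and 5. This sum did not overlap between the groups, and it was carried mostly by Ttr (121 ± 113 CPM in KO and 866 ± 675 CPM in WT). All 6 markers had negative log2 fold changes. By edgeR 0 of them were called (smallest adjusted p 0.193), and 4 had an unadjusted p under 0.05. WT pups 5 and 2 had the highest marker sums and the highest Slc2a12 levels, whereas KO pup 3 had the lowest sum without the lowest Slc2a12 level. The part of these cells in the Slc2a12 values was not tested.

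**Figure D4:**
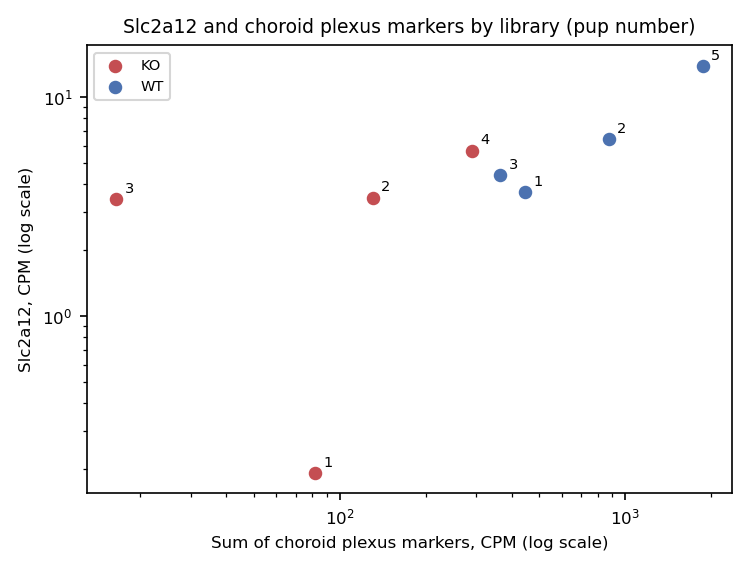
Slc2a12 in CPM against the summed CPM of 6 choroid plexus markers, both on log scales, with 1 point per library and the pup number beside it. WT pup 5 is highest on both axes (13.9 and 1868 CPM), and KO pup 1 is lowest for Slc2a12 at 0.192 CPM.

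Set against the fall of Slc2a1, the differences of its relatives were small on the transcript scale. The mean of Slc2a1 was 438 RPKM lower in KO than in WT, while the sum of the other 9 members was 2.32 RPKM higher, 0.530% of that difference. That sum was 9.22, 11.5, 12.6 and 14.7 RPKM in KO pups 1 to 4, against 8.45, 9.15, 9.80 and 11.2 RPKM in WT pups 1, 2, 3 and 5, and the groups overlapped. Slc2a9 accounted for 37.4 ± 3.89% of it in KO and 18.4 ± 3.37% in WT. With each tested relative at the upper bound of its 95% interval, their joint rise would be 7.75 RPKM, 1.77% of the Slc2a1 difference. The ratio of Slc2a1 to Slc2a9 was 97.7 ± 5.38 in KO and 505 ± 147 in WT. The summed family level in KO was 50.3% of that in WT. These values measure messenger RNA and not protein or transport.

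Slc2a2 and Slc2a7, the 2 family genes with a row besides the 10 members, were not tested. Slc2a2, the GLUT2 of liver and pancreatic islets, had 49 counts in KO pup 1 and 0 to 3 in each other library. Slc2a7 had 0 counts throughout.

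Other genes of sugar entry showed 1 call. In 7 lists of related genes (76 listed, 54 tested), Dcxr rose and no gene fell, with a median log2 fold change of 0.03. EdgeR called 0.276% of all genes tested higher and 0.113% lower. At these shares, 0 calls are likely in lists as small as those below and are no result about their genes. At an unadjusted p under 0.05, edgeR gave 10 of these 54 genes (4 for transporter trafficking, 3 for ascorbate, 2 for fructose and polyol use, 1 other sugar carrier and 0 for phosphorylation, urate and myo-inositol), against 1575 of all 14154. Dcxr encodes the L-xylulose reductase of polyol metabolism and averaged 19.3 ± 3.12 CPM in KO and 6.03 ± 1.64 CPM in WT (log2 fold change 1.68, SE 0.20, edgeR adjusted p 0.00381). Of the 6 genes tested for fructose and polyol use, the aldose reductase gene Akr1b3 measured 0.32 and Sord 0.12 on the log2 fold scale. Akr1b8 measured 0.64 with an SE of 1.01 (edgeR adjusted p 0.880) and had 0 counts in KO pup 1. Dcxr was the 1 called gene of these 6. Its call was lost with either cage term (adjusted p 0.232 and 0.270).

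Among the 14 sodium-coupled and other sugar carriers, 6 were tested and 0 called, against 0.389% of all genes tested. The sodium-glucose cotransporter genes Slc5a1 and Slc5a2 did not pass the filter, with means of 0.0179 and 0.0239 CPM in KO and 0.0762 and 0.0611 CPM in WT. Slc45a4 had a log2 fold change of -0.58 (edgeR adjusted p 0.159). Its groups did not overlap, which was so for 7.19% of all genes tested. Log2 fold changes were 0.57 for Slc37a2, 0.17 for the glucose-6-phosphate carrier gene Slc37a4 and -0.03 for Slc50a1. Of the genes that phosphorylate glucose or reverse that step, 6 of 10 were tested and 0 called. Hexokinase 1 (Hk1), the first step after entry, had a log2 fold change of -0.13 with 123 ± 16.4 CPM in KO and 134 ± 7.30 CPM in WT, while Hk2, Hk3 and Adpgk measured 0.40, 0.24 and -0.10.

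All 19 genes for trafficking and turnover of glucose transporters were tested and 0 were called, against 0.389% of all genes tested. Arrdc4 and Txnip encode arrestins that promote removal of GLUT1 from the cell surface. Arrdc4 averaged 15.5 ± 3.26 CPM in KO and 30.5 ± 8.45 CPM in WT without overlap (log2 fold change -0.97, SE 0.21, edgeR adjusted p 0.0917). It passed without WT pup 3 (-1.13, adjusted p 0.0300) and by DESeq2 (-0.98, adjusted p 0.00140). Txnip averaged 682 ± 101 CPM in KO and 892 ± 207 CPM in WT (-0.39, adjusted p 0.383). The retromer regulator gene Tbc1d5 measured 0.32 (edgeR adjusted p 0.247) and the sorting receptor gene Sort1 -0.19 (edgeR adjusted p 0.327). Like those of Arrdc4, their KO and WT libraries did not overlap, which was so for 7.19% of all genes tested.

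Beside Slc2a9, 0 of 6 tested genes of urate handling were called, against 0.389% of all genes tested. The efflux pump gene Abcg2 averaged 469 ± 11.3 CPM in KO and 429 ± 96.0 CPM in WT (log2 fold change 0.13), and the organic anion carrier gene Slc22a8 853 ± 94.8 CPM in KO and 828 ± 137 CPM in WT (0.04). Pnp and Prps1 of purine metabolism measured -0.06 and 0.03. Of the genes for myo-inositol supply 6 were tested and 0 called, with Slc5a3 at -0.29, Impa2 at 0.26, Isyna1 at 0.09 and Impa1 at 0.05. All 5 tested genes for ascorbate supply had positive log2 fold changes, and 0 were called. Slc23a3 was at 1.81 (1.25 ± 0.290 CPM in KO, 0.349 ± 0.179 CPM in WT, edgeR adjusted p 0.280). Gsto1 was at 0.38, Glrx at 0.30 and the vitamin C carrier gene Slc23a2 at 0.05. The groups did not overlap for Slc23a3 and Glrx, which was so for 7.19% of all genes tested.

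Genes whose level across the 8 libraries was most like that of Slc2a9, by Pearson correlation of log2 CPM among 9963 genes, were Dglucy (0.990), Rps27l (0.978), Ercc5 (0.978), Pros1 (0.975) and Ephx1 (0.974). All 5 were themselves called higher, so the likeness includes the genotype difference. Ephx1, the microsomal epoxide hydrolase, averaged 121 ± 6.92 CPM in KO and 22.2 ± 3.77 CPM in WT, and Ercc5, an endonuclease of nucleotide excision repair, 65.4 ± 5.09 CPM in KO and 42.0 ± 2.38 CPM in WT. For Slc2a1 the most similar genes were Fndc1 (0.989), Csnk1e (0.976), Crim1 (0.972), Vwf (0.966) and Ccdc8 (0.962), of which Fndc1 and Vwf were called lower. These values describe 8 libraries in 2 groups.

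Markers matched the labelled cell type, and transcripts of other cells were also present in both groups. The sum of 11 endothelial markers, Cldn5 and Kdr among them, was 14772 to 16660.5 CPM in KO and 15559 to 16592 CPM in WT. Their log2 fold changes were positive for 6 and negative for 5. EdgeR called 0, against 0.389% of all genes tested, with 4 at an unadjusted p under 0.05. Tek (-0.30), Cldn5 (-0.12), Emcn (0.20) and Slco1a4 (0.30) did not overlap between the groups, against 7.19% of all genes tested. Neuronal markers, relevant for Slc2a3, summed to 28.6 to 42.5 CPM in KO and 26.7 to 42.5 CPM in WT (8 genes). Erythroid markers summed to 569 to 1001 CPM in KO and 522 to 1629 CPM in WT (7 genes), and red cells of newborn mice are known to carry GLUT1. All 5 tested erythroid markers had negative log2 fold changes (median -0.42). By edgeR 0 of them were called, with 1 at an unadjusted p under 0.05. Mural markers ranged from 1758 to 2647 CPM in KO and from 477 to 2668 CPM in WT (9 genes). Per length the highest of them was Rgs5, at 292 ± 62.1 RPKM in KO and 205 ± 121 RPKM in WT. The lowest was Tagln, at 2.53 ± 1.31 RPKM in KO and 1.78 ± 0.401 RPKM in WT. The endothelial marker Pecam1 averaged 222 ± 8.89 RPKM in KO and 220 ± 13.5 RPKM in WT, so Rgs5 transcripts were more than traces. None of the 10 marker lists had a gene at 0 in all libraries. Of the 10 sums, that of choroid plexus markers did not overlap between the groups. The astrocyte sum was 302.7 to 399.9 CPM in KO and 311.7 to 371.1 CPM in WT, and most of it was Gja1 (255 ± 32.5 CPM in KO and 299 ± 29.6 CPM in WT, log2 fold change -0.23). Its scarcer members were not level with that sum. Gfap averaged 38.9 ± 20.0 CPM in KO and 14.6 ± 7.60 CPM in WT (log2 fold change 1.43, edgeR adjusted p 0.237), and Aqp4, Slc1a2 and Aldh1l1 had log2 fold changes of 1.13, 1.08 and 1.03. Of the 7 astrocyte markers, 5 had positive and 2 negative log2 fold changes, the lowest at -1.21. By edgeR 0 of the 7 were called and 5 had an unadjusted p under 0.05, and the KO and WT libraries overlapped for each. The part of such cells in the levels of the SLC2A members was not tested.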

How the data were processed

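Whole-number counts per gene were deposited as 1 table for each of 8 libraries. The authors made these raw counts with STAR and featureCounts on GRCm38, per the submitters' processing notes. Versions, annotation release and strand setting were not given in the sources used here. Per the labels' protocols, stranded mRNA libraries were read as single ends of 100 bp. Names, coordinates and exon lengths came from GENCODE M21 (25587 of 25700 identifiers named). Members and lists were chosen with earlier results of these data known.

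Genes passing filterByExpr (minimum count 10, minimum total 15) were tested with edgeR 4.0.16 in R 4.3.3: TMM scaling (factors 0.978 to 1.03), genotype as the single term, quasi-likelihood F test, and Benjamini-Hochberg adjustment over 14154 genes at a threshold of 0.05. An SE is the log2 fold change over the square root of its F. Correlations used log2 CPM with a prior count of 2 in genes averaging 3 or more on that scale. Named genes were all members, up to 4 genes with the smallest p and any called gene of each sugar list, the 5 genes most like each called member, and markers. Slc2a2, Slc2a7, Slc5a1, Slc5a2, Tbpl1 and the 4 p53 targets that did not pass were named after their values were seen. Coding sequences were aligned with MAFFT 7.526. The fit was tested on simulated counts. A count of 0 allows up to 3 counts, for counting error only. Alternatives included DESeq2 1.42.0, limma 3.58.1, sva 3.50.0, cage terms, other scalings and leaving out libraries.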

Additional observations from a re-analysis of the deposited data

Results flagged for a closer look

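Of 30 groups of 4 libraries examined, 3 had 1 library far from the other 3 by Dixon's criterion, which chance meets in about 1 of 20 groups. Slc2a2 had 2.35 CPM in KO pup 1, against 0.0477 to 0.0829 CPM in the other KO pups. Slc2a5 had 0.0716 CPM in KO pup 4 and 0.0394 CPM in WT pup 5, while the other 3 libraries of each group had 0, and these values stand for 3 counts and 1 count. Where the other 3 have 0, any value above 0 meets the criterion, so the rate of 1 in 20 does not apply to Slc2a5.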

How the results depend on the processing

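Over 20 alternatives the log2 fold change of Slc2a1 stayed between -1.31 and -0.89 and that of Slc2a9 between 1.24 and 1.54. Slc2a1 lost its call under 2 of them and Slc2a9 under 4, and the cause was not tested. With the second cage labels as a term the values were -0.89 for Slc2a1 and 1.27 for Slc2a9, with 0 members called in either direction. Within the cage of the KO pups Slc2a9 was not called by the titles (1.54) or by the second labels (1.27), which left 0 members called higher. Without any one library Slc2a1 ranged from -1.14 to -0.90 and Slc2a9 from 1.28 to 1.40, and each stayed called.

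Pup numbers 1 to 3 occur in both genotypes, but the deviations of same-numbered pups correlated at -0.19, 0.27 and -0.35 over 9964 genes. The signs differ, so these values do not show a common pairing by pup number. By the second cage labels WT pup 3 also shared a cage with KO pup 3. With the pup number as a replicate block, 11 genes were higher and 0 lower in KO, 0 members and 0 other sugar genes were called, and Slc2a1 was at -0.91 (adjusted p 0.0931) and Slc2a9 at 1.24 (adjusted p 0.158).

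Over all genes, 39 were higher and 16 lower in KO. These counts were 158 and 193 by DESeq2, 65 and 35 with 1 surrogate variable, 10 and 6 with the cage of the titles as a term, and 10 and 0 with the second cage labels. Within the cage of the KO pups, against 1 WT pup, 9 were higher and 12 lower by the titles, and 5 higher and 2 lower by the second labels. Without the filter 38 were lower, and 26 with both KO pup 1 and WT pup 2 left out. Leaving out 1 library gave 25 (without KO pup 2) to 60 (without KO pup 1) higher and 6 (without KO pup 3) to 27 (without WT pup 3) lower. Of the other sugar genes, 0 were called higher under either cage term and within either cage, while DESeq2 called 2 lower, Arrdc4 and Slc45a4, and Arrdc4 was the 1 called lower without WT pup 3 (0 without any other single library).

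Members that were not called changed sign at times. Slc2a4 was at -0.55 and -0.40 with the cage terms (titles, second labels), -0.57 and -0.42 within the cages, -0.0044 with the surrogate variable, -0.98 with the replicate block, -1.16 without KO pup 4 and -0.15 without WT pup 1. Slc2a8 was at -0.030 and -0.19 with the cage terms, -0.031 and -0.19 within the cages, -0.074 with the block, -0.10 without KO pup 4 and -0.037 without WT pup 2. Leaving out 1 library gave at most 0.71 for Slc2a4 and 0.16 for Slc2a8, both without KO pup 1. Slc2a3 was at -0.10 with the second cage labels, as a term and within the cage. With the longest transcript as the length, KO levels were 462 RPKM for Slc2a1 and 476 RPKM for the family sum. The length of Slc2a9 was then 3602 bases in place of 5083, and that of Slc2a8 3120 in place of 3209. This placed the KO mean of Slc2a9 above that of Slc2a8, so their order in KO depends on the length used. Adding Slc2a2 and Slc2a7 to the sum, an alternative chosen after seeing the data, moved no sum by more than the spread between pups. Depth limited Slc2a4, Slc2a5 and Slc2a6, with 102, 4 and 143 counts over all libraries.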
